A study of Mus musculus with 6 samples.

Results

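The genes described here are collagens, laminins and other genes of the extracellular matrix in primary mouse Sertoli cells that lost UXT. They were chosen by name. A gene was taken if its symbol began with Col, Lama, Lamb, Lamc, Lox, Fbn, Fbln, Thbs, Nid or Matn followed by a digit. Lox itself and 18 matrix genes listed singly were added. The authors' deposited table held 40 of them, among 3257 genes analysed. Of the 40, 20 were collagens and 20 were other matrix genes, and 11 of the 18 singly listed genes were present. Tnc, Fn1, Vcan, Bgn, Lum, Fmod and Mgp were not analysed here.

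UXT (ART-27) is a prefoldin-like cofactor of the androgen receptor, and the study compared the transcripts of cells with and without it. The 3 KO libraries came from Sertoli cells of UXT KO mice infected with a viral construct that carried Cre recombinase. The 3 WT libraries came from Sertoli cells infected with an empty plasmid. All cells were primary cultures from C57BL/6 mice, enriched for Sertoli cells by differential plating and infected in 2 rounds. The labels give neither the age of the mice nor the allele that Cre acted on, and only KO cells had received Cre. The effect of Cre and its virus and that of the loss of UXT cannot be told apart. Nothing in the labels ties each library to its own animal or culture, so p-values cover the spread among these 6 libraries alone, which may be technical. Uxt itself had no row in the authors' deposited table, so the labels could not be checked by the targeted gene.

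The extracellular matrix is the secreted scaffold that surrounds cells. Fibrillar collagens are triple helices that pack into tensile fibrils. Collagen IV and laminins form the sheets of basement membranes, which nidogens and the proteoglycan perlecan link together. Matricellular proteins bind this scaffold and signal to cells. In the testis, Sertoli cells rest on the basement membrane of the seminiferous tubule, to which they and the peritubular myoid cells outside it both contribute. Fibrillar collagens are typical products of myoid and fibroblastic cells.

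Matrix transcripts were lower in KO cells for 39 of the 40 genes and higher for 1, Hspg2, although 5 of the 39 (Col28a1, Col4a1, Col8a2, Fbn2 and Lama3) changed sign when the libraries were quantile normalized, as did Col28a1 on median centring. Limma, a linear-model test fitted to all genes, called 67.5% of the whole table lower and 32.1% higher, beside 97.5% lower among the matrix genes. Quantile normalization raised the table's median difference by 0.33 on the log2 scale. It left 22 of the 40 matrix genes called lower and 1 higher, beside 1143 lower and 1049 higher of all 3257 genes. Median centring raised that median by 0.30 and left 21 matrix genes lower and 1 higher, beside 1024 lower and 1116 higher of all 3257. All 20 collagens were among the 39. Folds in the authors' deposited table lay between 1.52, for Col4a1, and 5.25, for Col2a1. Of the 40 genes, 24 reached 2-fold and 5 reached 3-fold in the authors' deposited table. These 5 were Col2a1, Ogn, Col11a1, Tnxb and Nid2.

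The authors had kept in their table only genes that passed a fold of 1.5 and an adjusted p of 0.05 on these same libraries, so a call there is no independent evidence that a gene differs. Of the table's called genes 67.8% were lower, against 52.1% after quantile normalization and 47.9% after median centring. In 97.5% of the whole table all 3 KO values lay above or all below the 3 WT values, which held for all 40 matrix genes. The median log2 fold in the authors' deposited table was -1.09 for the matrix genes, -0.88 for the whole table and -1.22 for its lower genes. On the moderated values described next, the median KO minus WT difference was -0.66 for the matrix genes and -0.40 for the whole table. Among lower genes alone that difference was -0.67 for the matrix genes and -0.53 for the whole table. Lower genes of the table whose mean value lay in the matrix genes' middle range had a median log2 fold of -0.96 in the authors' deposited table. It was -1.10 for all 39 lower matrix genes, which were not limited to that range. Levels were therefore not matched, here or in the comparisons with such middle-level genes below. The order of these medians thus depends on the scale and the set of genes compared. Just inside the fold limit lay Col4a1 at 1.52, Ecm1 at 1.61, Col16a1 at 1.62 and Hspg2 at 1.63 in the authors' deposited table. Genes just outside it were not analysed here.

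Values per library are the authors' normalized log2 values, with no counts behind them here, so the depth was unknown. They were moderated, most at low levels. The KO minus WT difference of these values was a median of 0.365 of the log2 fold in the authors' deposited table for the 13 matrix genes with a mean value under 10. For the other 27 it was a median of 0.695 of the log2 fold in the authors' deposited table. Folds below are the authors', and the per-library values serve for spread, test and direction. Values are not divided by transcript length, so levels are not compared between genes.

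Markers of several cell types moved with the matrix genes. Sox9, the Sertoli identity factor with the smallest of the 12 folds (1.81 in the authors' deposited table), had values of 11.13, 11.12 and 11.37 in KO libraries and 11.61, 11.90 and 11.80 in WT libraries. Shbg, with the largest fold (17.2 in the authors' deposited table), had 5.86, 5.90 and 5.86 in KO libraries and 7.21, 7.24 and 7.12 in WT libraries. Amh, the Müllerian inhibiting hormone of immature Sertoli cells, had 4.24, 4.26 and 4.31 in KO libraries and 4.53, 4.55 and 4.72 in WT libraries. All 12 Sertoli markers in the table, of 20 on the list, were lower in KO cells, beside 67.5% called lower among all 3257 genes. So were 9 of 12 listed peritubular myoid, 3 of 14 fibroblast and 17 of 18 endothelial markers. The same held for 15 of 15 macrophage and 2 of 8 germ cell markers. These were all the markers of each list in the table, whose genes the authors had already selected on this contrast. After quantile normalization 9 Sertoli, 6 myoid, 3 fibroblast, 16 endothelial, 14 macrophage and 1 germ cell markers were still called lower. After median centring these counts were 8, 8, 3, 15, 13 and 1, in the same order. Beside them, 1143 of all 3257 genes were called lower after quantile normalization and 1024 after median centring. Among all these markers the sign of Tek, Tagln and Sycp3 turned after quantile normalization, and that of Sycp3 on median centring too. The markers of a list were summed within each library after undoing the log2. Such a sum mostly follows the markers with the highest values. These were Clu among the Sertoli, Acta2 and Tagln among the myoid and Kit among the germ cell markers. As values are not per transcript length, a sum describes these markers more than the whole list. On the log2 scale the sum of the myoid markers was 18.54 to 18.74 in KO libraries and 19.03 to 19.35 in WT libraries. That of the Sertoli markers was 15.68 to 16.12 in KO libraries and 16.96 to 17.40 in WT libraries. For fibroblast markers it was 11.60 to 12.02 in KO libraries and 12.86 to 13.00 in WT libraries, and for endothelial markers 12.06 to 12.33 in KO libraries and 13.15 to 13.28 in WT libraries. For macrophage markers it was 13.31 to 13.54 in KO libraries and 14.80 to 15.16 in WT libraries, and for germ cell markers 6.20 to 6.38 in KO libraries and 7.89 to 7.95 in WT libraries. The 3 Leydig markers present, of 8, were higher, at 15.71 to 16.04 in KO libraries and 15.15 to 15.35 in WT libraries. None of these markers stood at 0, but the values are moderated most at low levels, so this does not show that each was still expressed. In bulk RNA, fewer cells of a type and less RNA per cell cannot be told apart, and the part of cell composition in the matrix result was not tested.

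**Figure D1:**
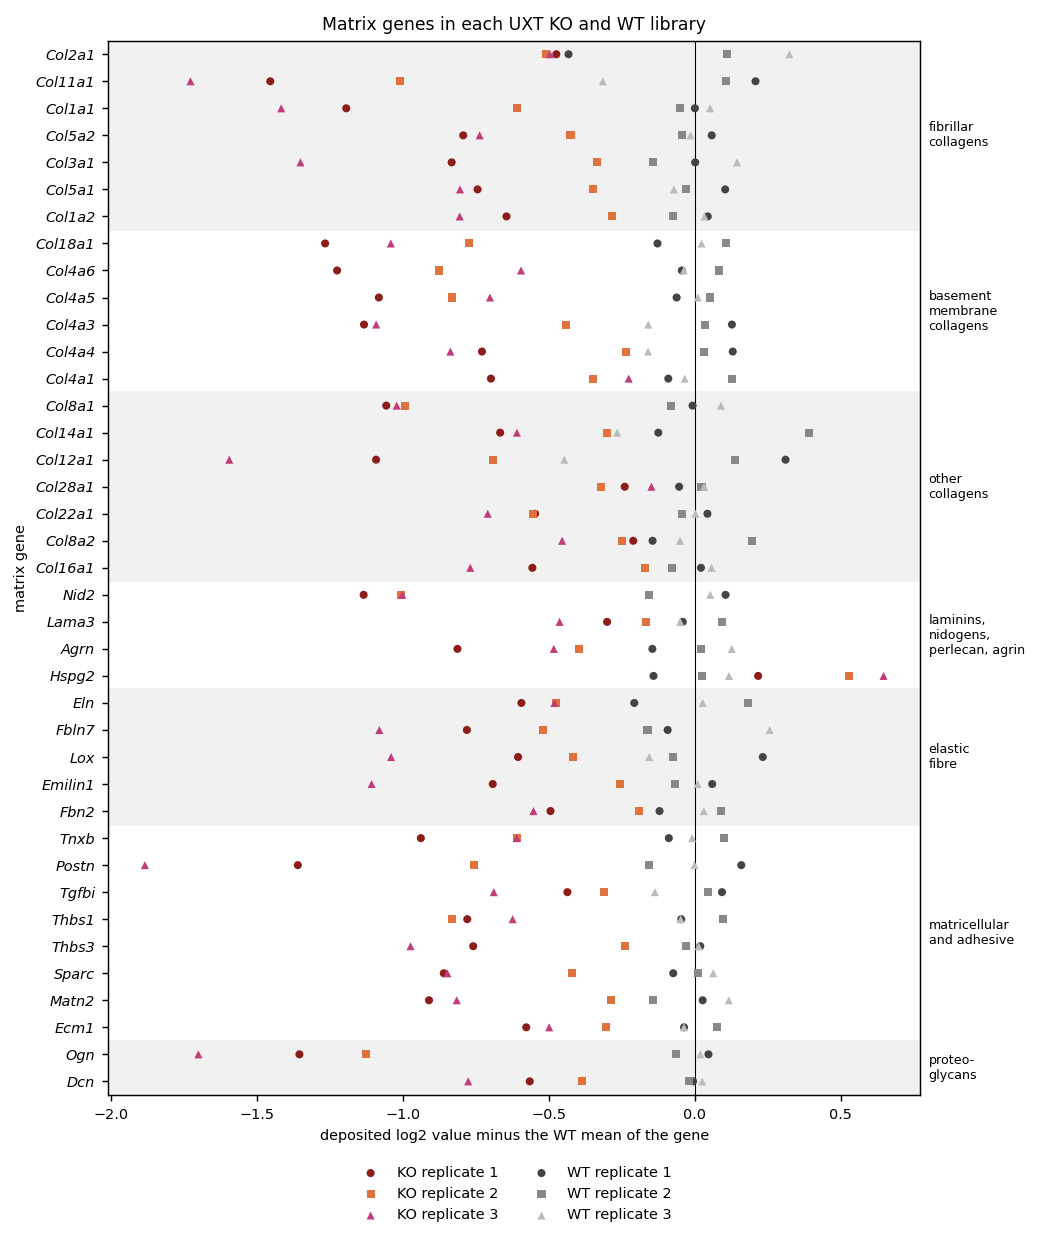
Deposited log2 value minus the gene's WT mean (horizontal axis) for 39 of the 40 matrix genes (vertical axis, by role), with 1 point per library: KO libraries in red and orange, WT libraries in grey. In every gene shown except Hspg2 all 3 KO points lie left of the 3 WT points, and Hspg2 lies the other way. Without rescaling these are the deposited values: after quantile normalization Col28a1, Col4a1, Col8a2, Fbn2 and Lama3 changed sign, and Col28a1 on median centring too.

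Promoters are shown for 4 matrix genes that carry the contrasts described below. Col3a1 is a fibrillar collagen whose KO libraries spread widely, Col4a6 and Col4a5 are adjacent genes that differed by nearly the same amount, and Hspg2 is the gene that was higher. Each sequence is the 150 bases directly before the gene's outermost start in RefSeq (GRCm38.p6), written 5′ to 3′ on the gene's own strand. Capitals mark matches on either strand to 6 motifs. The motif TATAAA is the core promoter box and GGGCGG is the box bound by Sp1. The motif TGANTCA is of the AP-1 kind, and CAGAC is of the SMAD kind. The motif GGAATG is of the TEAD kind, while AGAACA is only a part of a steroid receptor element.
Col3a1, chr1:45311388-45311537, plus strand: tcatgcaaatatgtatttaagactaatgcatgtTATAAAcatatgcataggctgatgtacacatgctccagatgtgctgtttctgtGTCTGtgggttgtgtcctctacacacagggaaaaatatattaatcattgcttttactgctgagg
Col4a6, chrX:141474096-141474245, minus strand: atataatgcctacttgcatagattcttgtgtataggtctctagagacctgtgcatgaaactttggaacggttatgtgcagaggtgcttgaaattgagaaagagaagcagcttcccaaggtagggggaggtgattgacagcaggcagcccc
Col4a5, chrX:141475220-141475369, plus strand: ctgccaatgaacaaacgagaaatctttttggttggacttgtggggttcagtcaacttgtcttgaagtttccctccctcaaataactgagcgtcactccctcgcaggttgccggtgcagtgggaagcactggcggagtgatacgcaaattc
Hspg2, chr4:137468601-137468750, plus strand: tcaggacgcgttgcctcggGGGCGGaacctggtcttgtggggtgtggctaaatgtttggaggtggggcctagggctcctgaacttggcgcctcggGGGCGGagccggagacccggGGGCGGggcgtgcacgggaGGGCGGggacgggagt
Col3a1 held TATAAA at -117 to -112 and CAGAC on the other strand at -64 to -60, counted from the gene's start. Hspg2 held 4 copies of GGGCGG, the nearest at -16 to -11, and the printed stretches before Col4a6 and Col4a5 held none of the 6 motifs. The RefSeq promoter windows described next cover other bases too. They held GGGCGG in both Col4a6 and Col4a5, and GGAATG in Col4a6 and Col3a1, so these promoters are not free of the motifs.

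Of the 40 matrix genes, 24 had a RefSeq promoter window of 250 bases before to 50 bases after a start. GGGCGG stood in 15 of the 24 windows (62.5%), beside 38.2% of the 27025 genes with a window. TATAAA stood in 4 (16.7%), in Col3a1, Ecm1, Ogn and Postn, beside 15.7% of all genes. CAGAC stood in 14 (58.3%), beside 53.2%, and GGAATG in 5 (20.8%), beside 16.6%. AGAACA stood in 3 (12.5%), beside 21.3%, and TGANTCA in 2 (8.33%), beside 8.97%. The searched letters can overlap one another, and a match is a description of the sequence and not a binding site.

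Fibrillar collagens in the table were 7 of 11 listed, all 7 lower in KO cells, beside 67.5% called lower in the whole table. Their median log2 fold change was -0.95 in the authors' deposited table. None of the 7 turned sign under either rescaling. Col1a2, Col2a1 and Col3a1 lost their calls under both, and Col5a1 after quantile normalization. They include both chains of collagen I (Col1a1, Col1a2), the main fibril of connective tissue. Collagen III (Col3a1) and collagen V (Col5a1, Col5a2) are co-assembled with it, and collagen XI (Col11a1) and collagen II (Col2a1) are the typical fibrils of cartilage.

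Col2a1 (gene ID 12824, chromosome 15, 97975602 to 98004724 in GRCm38) had log2 values of 4.46, 4.43 and 4.44 in KO libraries and 4.51, 5.05 and 5.26 in WT libraries. The groups did not overlap, but WT replicate 1 sat beside the KO values. Its mean was 4.44 ± 0.02 in KO cells and 4.94 ± 0.39 in WT cells (SD, n = 3 each), and limma gave a difference of -0.49 ± 0.16 (SE, adjusted p = 0.0132). The fold in the authors' deposited table was 5.25, the largest of the 40 genes. The limma difference was 0.2065 of that fold's log2 in the authors' deposited table, the smallest such share of the 40.

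Col1a2 (gene ID 12843, chromosome 6, 4505618 to 4541543) had log2 values of 18.42, 18.78 and 18.26 in KO libraries and 19.11, 18.99 and 19.10 in WT libraries. KO replicate 2 was the highest KO library and still below every WT library. Limma gave a difference of -0.58 ± 0.16 (SE, adjusted p = 0.00657), and the fold in the authors' deposited table was 1.77. The difference shrank to -0.28 after median centring and to -0.03 after quantile normalization, and was called under neither.

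Col1a1 (gene ID 12842, chromosome 11, 94936224 to 94953042), described after its values were seen, had log2 values of 17.87, 18.45 and 17.64 in KO libraries and 19.06, 19.01 and 19.11 in WT libraries. The KO libraries spread over a far wider range than the WT libraries, with no overlap. The mean was 17.99 ± 0.42 in KO cells and 19.06 ± 0.05 in WT cells (SD, n = 3 each), and limma gave a difference of -1.07 ± 0.20 (SE, adjusted p = 0.000899). The fold in the authors' deposited table was 2.48.

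Col3a1 (gene ID 12825, chromosome 1, 45311538 to 45349706) had log2 values of 17.81, 18.30 and 17.29 in KO libraries and 18.64, 18.49 and 18.78 in WT libraries. KO replicate 2 came close to the lowest WT library and KO replicate 3 lay far below. By limma it differed by -0.84 ± 0.23 (SE, adjusted p = 0.00657), at a fold of 1.92 in the authors' deposited table. After median centring it was -0.54 and after quantile normalization -0.28, neither of them called. Col11a1 had 12.17, 12.62 and 11.90 in KO libraries and 13.83, 13.73 and 13.31 in WT libraries, a fold of 3.45 in the authors' deposited table. Its KO libraries kept the same order as those of Col1a1 and Col3a1.

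Of the collagen V genes, the authors' deposited table had Col5a2 1.94-fold lower and Col5a1 1.88-fold lower. Col5a2 had 16.65, 17.02 and 16.71 in KO libraries and 17.50, 17.40 and 17.43 in WT libraries. Col5a1 had 15.51, 15.91 and 15.45 in KO libraries and 16.36, 16.22 and 16.18 in WT libraries. In both genes KO replicate 2 was again the highest KO library.

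Basement membrane collagens in the table were 6 of 9 listed, all 6 lower, beside 67.5% called lower in the whole table. Their median log2 fold change was -1.20 in the authors' deposited table. Several chains of collagen IV and Col18a1, the core of a heparan sulphate proteoglycan whose end fragment is endostatin, made up the 6. The sign of Col4a1 alone of these turned after quantile normalization. Col4a1 lost its call under both rescalings, and Col4a4 after median centring.

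Col18a1 (gene ID 12822, chromosome 10, 77052178 to 77166530) had log2 values of 10.79, 11.28 and 11.01 in KO libraries and 11.93, 12.16 and 12.08 in WT libraries. The groups stood well apart. The mean was 11.03 ± 0.25 in KO cells and 12.05 ± 0.12 in WT cells (SD, n = 3 each), and limma gave a difference of -1.03 ± 0.12 (SE, adjusted p = 0.000107), and the fold in the authors' deposited table was 2.90.

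Col4a1 (gene ID 12826, chromosome 8, 11198423 to 11312889), a chain of the collagen IV found in most basement membranes, had log2 values of 17.04, 17.39 and 17.51 in KO libraries and 17.64, 17.86 and 17.70 in WT libraries. KO replicate 3 came within a small step of WT replicate 1. The difference in limma's fit was -0.43 ± 0.14 (SE, adjusted p = 0.0171) and the fold in the authors' deposited table was 1.52, the smallest of the 40. Its call was lost without KO replicate 1 and without WT replicate 2, and its difference was 0.13 after quantile normalization.

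The other 4 collagen IV chains belong to less widespread networks and lie as 2 pairs of adjacent genes. Col4a6 and Col4a5 stand 1274 bases apart on chromosome X (141165403 to 141474095 and 141475370 to 141689236). Col4a6 had 10.83, 11.17 and 11.46 in KO libraries and 12.01, 12.13 and 12.01 in WT libraries. Col4a5 had 12.86, 13.11 and 13.24 in KO libraries and 13.88, 13.99 and 13.95 in WT libraries. In both genes KO replicate 1 was the lowest and KO replicate 3 the highest KO library, with no overlap with WT. Their limma differences were -0.90 ± 0.14 (SE, adjusted p = 0.000396) and -0.87 ± 0.10 (SE, adjusted p = 9.75e-05), at folds of 2.47 and 2.45 in the authors' deposited table.

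Col4a4 and Col4a3 overlap by 114 bases on chromosome 1 (82448419 to 82587034 and 82586921 to 82722059). Whether counting used strand was not given in the sources used here, so reads in the overlap cannot be told apart. Col4a3 had 11.87, 12.56 and 11.91 in KO libraries and 13.12, 13.03 and 12.84 in WT libraries. Col4a4 had 13.09, 13.58 and 12.98 in KO libraries and 13.95, 13.85 and 13.66 in WT libraries. Here KO replicate 2 was the highest KO library, unlike in Col4a5 and Col4a6, and in Col4a4 it lay just below WT replicate 3. The folds in the authors' deposited table were 2.15 for Col4a3 and 1.72 for Col4a4.

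Of 24 listed collagens of other kinds, 7 were in the table and all 7 were lower, beside 67.5% called lower in the whole table. Their median log2 fold change was -1.12 in the authors' deposited table. Col28a1 and Col8a2 changed sign after quantile normalization, and Col28a1 on median centring. Under each rescaling 3 of the 7 were called, with Col14a1, Col16a1, Col28a1 and Col8a2 losing their calls under both. Col8a1 (gene ID 12837, chromosome 16, 57624256 to 57754737), a short-chain collagen of vessel walls and other tissues, had log2 values of 12.35, 12.42 and 12.39 in KO libraries and 13.40, 13.33 and 13.50 in WT libraries. Its KO libraries lay almost on one another, far below WT. Its difference by limma was -1.02 ± 0.08 (SE, adjusted p = 9.26e-06), the smallest p of the 40 genes, at a fold of 2.96 in the authors' deposited table.

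Col12a1 (gene ID 12816, chromosome 9, 79598987 to 79721141), which decorates the surface of collagen I fibrils, had log2 values of 13.10, 13.50 and 12.60 in KO libraries and 14.50, 14.33 and 13.74 in WT libraries. Both groups spread widely, and KO replicate 2 lay not far below WT replicate 3. Limma's estimate was -1.13 ± 0.24 (SE, adjusted p = 0.00189), at a fold of 2.51 in the authors' deposited table. The other 5 were Col14a1 (2.85-fold), Col28a1 (2.18-fold), Col22a1 (2.10-fold), Col8a2 (1.87-fold) and Col16a1 (1.62-fold), all lower in KO cells in the authors' deposited table. Col8a2 had the largest adjusted p of the 40 (limma, 0.0234), and lost its call without KO replicate 3 and without WT replicate 2.

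Among laminins, nidogens and basement membrane proteoglycans, 5 of 15 listed genes were in the table, of which 4 were lower and 1 higher. Lama3, which was 1.81-fold lower in the authors' deposited table, turned sign after quantile normalization. It and Agrn lost their calls under both rescalings. The median log2 fold change of the group was -0.85 in the authors' deposited table. Lama3 is an alpha chain of laminins that anchor epithelia. Its values were 6.38, 6.51 and 6.22 in KO libraries and 6.64, 6.77 and 6.63 in WT libraries, with KO replicate 2 the nearest to WT. Agrn, a heparan sulphate proteoglycan known for clustering acetylcholine receptors, was 1.78-fold lower in the authors' deposited table.

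Nid2 (gene ID 18074, chromosome 14, 19751257 to 19811787), which joins laminin to collagen IV, had log2 values of 11.05, 11.17 and 11.18 in KO libraries and 12.29, 12.02 and 12.23 in WT libraries. The 3 KO libraries lay close together and clear of WT. The mean was 11.13 ± 0.08 in KO cells and 12.18 ± 0.14 in WT cells (SD, n = 3 each), and limma gave a difference of -1.05 ± 0.09 (SE, adjusted p = 1.81e-05). The fold in the authors' deposited table was 3.08.

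Hspg2 (gene ID 15530, chromosome 4, 137468751 to 137570630) encodes perlecan, the large heparan sulphate proteoglycan of basement membranes, and was the 1 matrix gene higher in KO cells. Its log2 values were 16.26, 16.57 and 16.69 in KO libraries and 15.90, 16.07 and 16.16 in WT libraries. KO replicate 1, the lowest KO library, lay just above the highest WT library. The mean was 16.51 ± 0.22 in KO cells and 16.05 ± 0.13 in WT cells (SD, n = 3 each), and limma gave a difference of 0.46 ± 0.13 (SE, adjusted p = 0.00758). It was 1.63-fold higher in the authors' deposited table, and stayed higher and called under every alternative run except the fold limit of 2, which it does not reach.

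Elastic fibre genes in the table were 5 of 9 listed, all 5 lower, beside 67.5% called lower in the whole table. Among the 5, Fbn2 turned sign after quantile normalization. Median centring left Fbln7 alone of the 5 called and quantile normalization left Emilin1 alone, so no elastic fibre gene was called under both. Their median log2 fold change was -0.91 in the authors' deposited table. Eln (gene ID 13717, chromosome 5, 134702595 to 134747368), the elastin core of the fibre, had log2 values of 6.25, 6.37 and 6.36 in KO libraries and 6.64, 7.03 and 6.87 in WT libraries. WT replicate 1 was the nearest to the KO values. KO minus WT was, by limma, -0.52 ± 0.11 (SE, adjusted p = 0.00187), at a fold of 2.72 in the authors' deposited table. It was -0.22 after median centring and -0.06 after quantile normalization, with the call lost under both.

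Lox (gene ID 16948, chromosome 18, 52516060 to 52529867), the lysyl oxidase that cross-links collagen and elastin, had log2 values of 16.87, 17.06 and 16.43 in KO libraries and 17.71, 17.40 and 17.32 in WT libraries. KO replicate 3 was the lowest library. Limma gave a difference of -0.69 ± 0.17 (SE, adjusted p = 0.00444), at a fold of 1.88 in the authors' deposited table. Fbln7, a fibulin, was 2.69-fold lower, Emilin1, a glycoprotein of the elastin surface, 1.78-fold lower, and the microfibril gene Fbn2 1.77-fold lower in the authors' deposited table.

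Matricellular and adhesive glycoproteins in the table were 8 of 16 listed, all 8 lower, beside 67.5% called lower in the whole table. Their median log2 fold change was -1.08 in the authors' deposited table. Tgfbi and Thbs3 lost their calls under both rescalings, and Ecm1 after median centring. Tnxb (gene ID 81877, chromosome 17, 34660453 to 34719815), a tenascin that organizes collagen, had log2 values of 6.36, 6.69 and 6.69 in KO libraries and 7.21, 7.40 and 7.29 in WT libraries. KO replicate 1 was the lowest library. By limma it differed by -0.72 ± 0.11 (SE, adjusted p = 0.000427), at a fold of 3.25 in the authors' deposited table.

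Sparc (gene ID 20692, chromosome 11, 55394159 to 55420080), a collagen-binding glycoprotein, had log2 values of 18.49, 18.92 and 18.50 in KO libraries and 19.27, 19.36 and 19.41 in WT libraries. KO replicate 2 stood above the other KO libraries and below all of WT. The difference in limma's fit was -0.71 ± 0.16 (SE, adjusted p = 0.00227), at a fold of 2.03 in the authors' deposited table.

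Postn, or periostin, had the largest spread among KO libraries of the 40 genes, with log2 values of 13.11, 13.72 and 12.59 in KO libraries and 14.63, 14.32 and 14.47 in WT libraries. KO replicates 2 and 3 lay farther apart than KO replicate 2 and the lowest WT library. Its difference by limma was -1.33 ± 0.24 (SE, adjusted p = 0.000723), at a fold of 2.70 in the authors' deposited table. The other 5 were Tgfbi (2.54-fold), Thbs1 (2.17-fold), Thbs3 (2.05-fold), Matn2 (2.02-fold) and Ecm1 (1.61-fold), all lower in KO cells in the authors' deposited table. Thbs1, thrombospondin 1, an activator of latent TGF-beta, had 16.75, 16.70 and 16.91 in KO libraries and 17.48, 17.63 and 17.48 in WT libraries, and KO replicate 2 was here the lowest library.

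Of 6 listed small proteoglycans, Ogn and Dcn were in the table and both were lower, beside 67.5% called lower in the whole table. Ogn (gene ID 18295, chromosome 13, 49608015 to 49624501), or osteoglycin, had log2 values of 9.83, 10.05 and 9.48 in KO libraries and 11.23, 11.12 and 11.20 in WT libraries. Every KO library was more than 1 log2 unit below every WT library. Limma's estimate was -1.39 ± 0.13 (SE, adjusted p = 3.08e-05), at a fold of 4.36 in the authors' deposited table. Dcn (gene ID 13179, chromosome 10, 97479500 to 97518163), or decorin, which binds collagen fibrils and TGF-beta, had log2 values of 12.10, 12.28 and 11.89 in KO libraries and 12.66, 12.65 and 12.69 in WT libraries. Its WT libraries were nearly equal and its KO libraries were not. KO minus WT was, by limma, -0.58 ± 0.10 (SE, adjusted p = 0.000671), at a fold of 1.81 in the authors' deposited table.

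The KO libraries differed among themselves in these genes. KO replicate 2 was the highest KO library in 28 of the 40 matrix genes (70.0%), beside 35.4% of the whole table, 46.6% of its lower genes and 501 of the 1002 lower genes whose mean value lay between the 25th and the 75th percentile of the matrix genes. The median matrix gene stood at -0.77 in KO replicate 1, -0.42 in KO replicate 2 and -0.79 in KO replicate 3, as log2 value minus the WT mean. For the table's lower genes these medians were -0.56, -0.49 and -0.57 in the 3 KO libraries. KO replicate 2 was thus nearer to WT in the matrix genes than the other KO libraries were, by more than in the table's lower genes, as a description with no test. All 3 KO libraries had a median below WT.

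The order among KO libraries was not the same in all matrix genes. In 18 of the 40 (beside 653 of the table's 2210 lower genes and 715 of all 3257) KO replicate 3 was lowest and KO replicate 2 highest. These 18 included 5 of the 7 fibrillar collagens (Col1a1, Col1a2, Col3a1, Col5a1, Col11a1), 4 of the 5 elastic fibre genes (Lox, Fbln7, Emilin1, Fbn2), and Postn, Ogn and Dcn. In 6 others KO replicate 1 was lowest and KO replicate 3 highest. That was 15.0% of the matrix genes, a smaller share than in the table (609 of the 2210 lower genes, 27.6%, and 827 of all 3257, 25.4%). Those 6 were Col4a1, Col4a5, Col4a6, Nid2, Hspg2 and Tnxb. All but Tnxb are basement membrane genes, but the basement membrane genes Col18a1, Col4a3, Col4a4, Agrn and Lama3 had other orders. KO replicate 2 was also the highest KO library in 9 of the 9 myoid markers present, 13 of 15 collagen processing genes, 19 of 26 matrix breakdown genes and 2 of 3 fibroblast markers. The counts were 17 of 30 other matrix proteins, 9 of 17 receptors, 6 of 14 regulators, 6 of 12 Sertoli, 8 of 17 endothelial and 5 of 15 macrophage markers, and 0 of 3 Leydig and 0 of 2 germ cell markers. Acta2, the smooth muscle actin of myoid cells, had 17.71, 17.85 and 17.68 in KO libraries and 18.50, 18.53 and 18.21 in WT libraries. The part of myoid cells in this pattern was not tested.

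**Figure D2:**
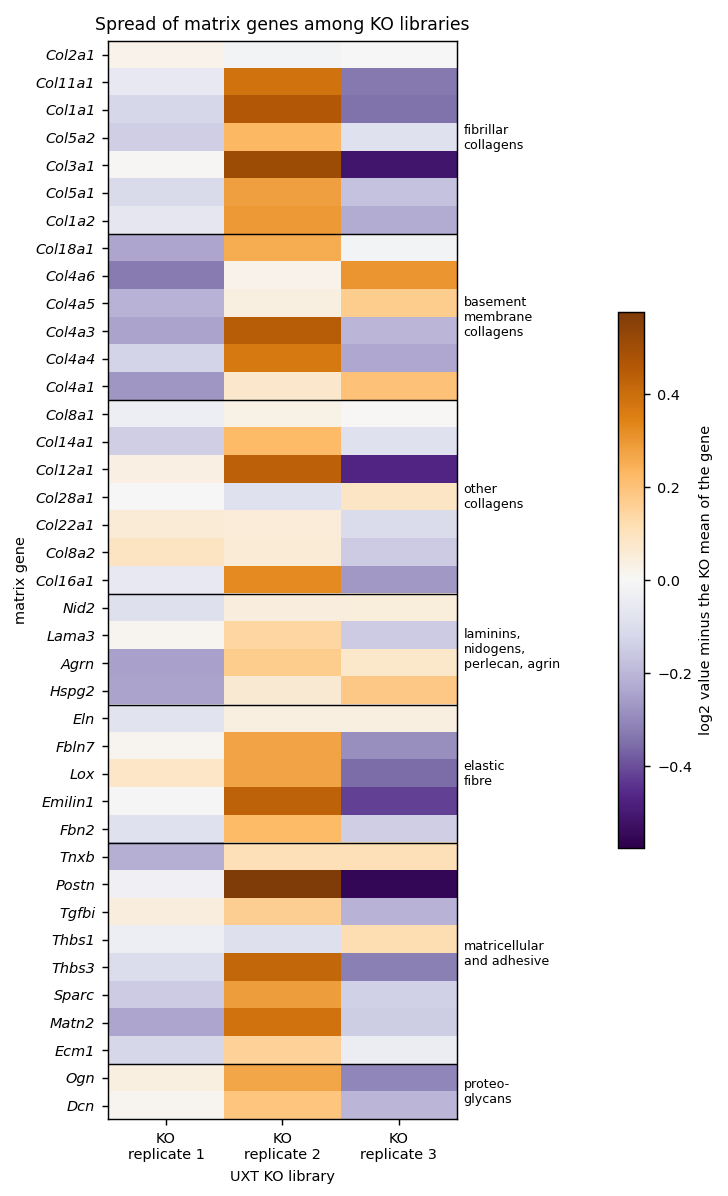
Log2 value minus the gene's KO mean (colour, orange above and purple below) for 39 of the 40 matrix genes (rows, by role) in the 3 UXT KO libraries (columns). KO replicate 2 is the highest in 28 of the 39 rows, while Col4a1, Col4a5, Col4a6, Nid2, Hspg2 and Tnxb run lowest in KO replicate 1 and highest in KO replicate 3.

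Spread within the KO group was wider than within the WT group for most matrix genes. The median SD was 0.233 in KO libraries and 0.102 in WT libraries (n = 3 each), beside 0.102 in KO libraries and 0.0931 in WT libraries for the whole table. For the table's lower genes of middle level it was 0.137 in KO libraries and 0.0974 in WT libraries. The KO SD exceeded the WT SD in 34 of the 40 (85.0%), beside 54.6% of the whole table and 66.7% of its lower genes of middle level. It was over 2 times the WT SD in 23 matrix genes (57.5%), beside 26.9% of the whole table. Postn had the largest KO SD, 0.564, and Thbs3 reached 0.378 in KO libraries against 0.0271 in WT libraries. Col2a1, Eln, Nid2, Col8a1, Col8a2 and Col14a1 were the 6 in which WT libraries spread more.

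**Figure D3:**
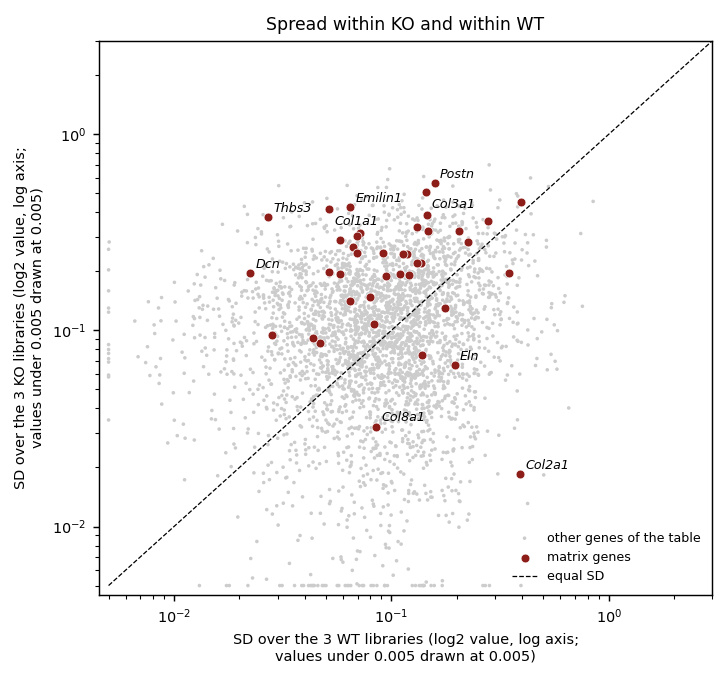
SD over the 3 KO libraries (vertical axis) against SD over the 3 WT libraries (horizontal axis) of the log2 values, both on log axes, for the 40 matrix genes (red) and the other genes of the table (grey); SDs below the plotted range are drawn at its edge. Of the matrix genes, 34 lie above the dashed line of equal SD.

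Chains that assemble together, or that lie side by side, were compared within each library for 5 pairs, chosen after the values were seen. With 3 libraries against 3 an exact permutation test cannot give a p under 0.1, so no pair could pass a threshold of 0.05. Col1a1 minus Col1a2, the chains of collagen I, was -0.55, -0.33 and -0.62 in KO libraries and -0.05, 0.02 and 0.01 in WT libraries. The difference lay near 0 in every WT library and below that in every KO library. As levels are not per length, only this shift between the groups can be read. The KO minus WT difference was -0.50 (two-sided exact permutation p = 0.1, 0.167 adjusted over the 5 pairs). Col4a3 minus Col4a4 averaged -1.11 ± 0.10 in KO cells and -0.82 ± 0.0026 in WT cells (SD, n = 3 each), also with no overlap (exact permutation p = 0.1, adjusted 0.167).

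Col4a5 minus Col4a6 averaged 1.92 ± 0.13 in KO cells and 1.89 ± 0.04 in WT cells (SD, n = 3 each), with overlapping values (exact permutation p = 0.8, adjusted 0.8). Col5a1 minus Col5a2 averaged -1.17 ± 0.08 in KO cells and -1.19 ± 0.05 in WT cells (SD, n = 3 each), overlapping too (exact permutation p = 0.7, adjusted 0.8). These p-values do not show that the chains of a pair moved equally. The last pair, Col8a1 with Col8a2, held a gene of low values, and had no overlap (exact permutation p = 0.1, adjusted 0.167). Its KO minus WT difference of -0.72 cannot be told apart from the stronger moderation of low values.

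Genes whose products help to process and cross-link collagen were lower in 14 of the 15 in the table, of 39 listed, and higher in 1. That was 93.3% lower, beside 67.5% called lower in the whole table. After median centring 7 were called lower and 2 higher, with Colgalt2 turned in sign, and after quantile normalization 10 lower and 1 higher. Beside this list and those below, the whole table had 1024 of 3257 genes called lower and 1116 higher after median centring. After quantile normalization it had 1143 lower and 1049 higher. The largest falls were those of Loxl2, a lysyl oxidase-like enzyme (4.19-fold), Adamts2, which removes the procollagen N-propeptide (2.69-fold), and P4ha2, a prolyl hydroxylase (2.61-fold) in the authors' deposited table. Loxl2 had log2 values of 14.17, 14.56 and 14.01 in KO libraries and 15.70, 15.77 and 15.52 in WT libraries, with KO replicate 2 again the highest KO library. Adamts14, a relative of Adamts2, was 1.78-fold higher in the authors' deposited table. Counting Loxl2 and Loxl4 (1.88-fold lower in the authors' deposited table) as matrix genes gave 41 lower and 1 higher.

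Other matrix proteins in the table were 30 of 65 listed, with 29 lower (96.7%, beside 67.5% of the whole table) and 1 higher. Among them Bcan, Hapln4, Igsf10, Papln and Spon1 turned sign after quantile normalization. Called lower were 16 after quantile normalization and 18 after median centring, with 1 higher under each. Mmrn2, a multimerin of endothelial cells, was 30.5-fold lower, Prelp, a leucine-rich proteoglycan, 9.11-fold lower and Vwa1, a perlecan-binding protein, 5.92-fold lower in the authors' deposited table. Spp1, or osteopontin, was 3.05-fold higher in the authors' deposited table. Mfap5, which was 2.80-fold lower in the authors' deposited table, stands both on this list and among the fibroblast markers.

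Matrix receptors were lower in 16 of the 17 in the table (94.1%), of 35 listed, beside 67.5% called lower in the whole table. Under each rescaling 13 were called lower and 1 higher. Itga7, an integrin that binds laminin, was 7.52-fold lower, the syndecan Sdc4 5.09-fold lower and the leukocyte collagen receptor Lair1 4.94-fold lower in the authors' deposited table. Dag1, or dystroglycan, a receptor of laminin, perlecan and agrin, was 2.02-fold lower in the authors' deposited table and was named after its value was seen. Sdc1 was the 1 receptor higher, by 1.86-fold in the authors' deposited table.

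Proteases that break down matrix, and their inhibitors, numbered 26 of 47 listed, 23 of them lower (88.5%, beside 67.5% of the whole table) and 3 higher. After median centring 16 were called lower and 3 higher, and after quantile normalization 18 lower and 3 higher. Adamts5, an aggrecanase, was 5.04-fold lower, the elastase Mmp12 4.77-fold lower and the gelatinase Mmp9 4.69-fold lower in the authors' deposited table. Timp4, an inhibitor, was 2.35-fold higher, Mmp10 2.22-fold higher and the gelatinase Mmp2 2.13-fold higher in the authors' deposited table. Timp4 had low values, 4.20, 4.09 and 4.37 in KO libraries and 4.08, 4.01 and 3.99 in WT libraries. Its KO replicate 2 lay just above WT replicate 1. Mmp2 had 14.49, 14.60 and 13.71 in KO libraries and 12.98, 13.49 and 13.73 in WT libraries, so its groups overlapped.

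Regulators of matrix genes in the TGF-beta, BMP and related pathways numbered 14 of 39 listed, of which 10 (71.4%) were lower and 4 higher, near the 67.5% lower of the whole table. After median centring 5 were called lower and 4 higher, and after quantile normalization 7 lower and 4 higher. Pdgfb was 7.57-fold lower, Bmp2 6.95-fold lower and Bmp4 4.53-fold lower in the authors' deposited table. Grem1, a secreted BMP antagonist, was 23.1-fold higher, the activin subunit Inhba 1.75-fold higher and the BMP target Id1 1.72-fold higher in the authors' deposited table. The median log2 folds in the authors' deposited table were -0.91 for collagen processing, -1.39 for other matrix proteins, -1.53 for receptors, -1.03 for breakdown and -0.80 for these regulators, beside -0.88 for the whole table. No receptor, protease, inhibitor or regulator of these lists turned sign under either rescaling.

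**Figure D4:**
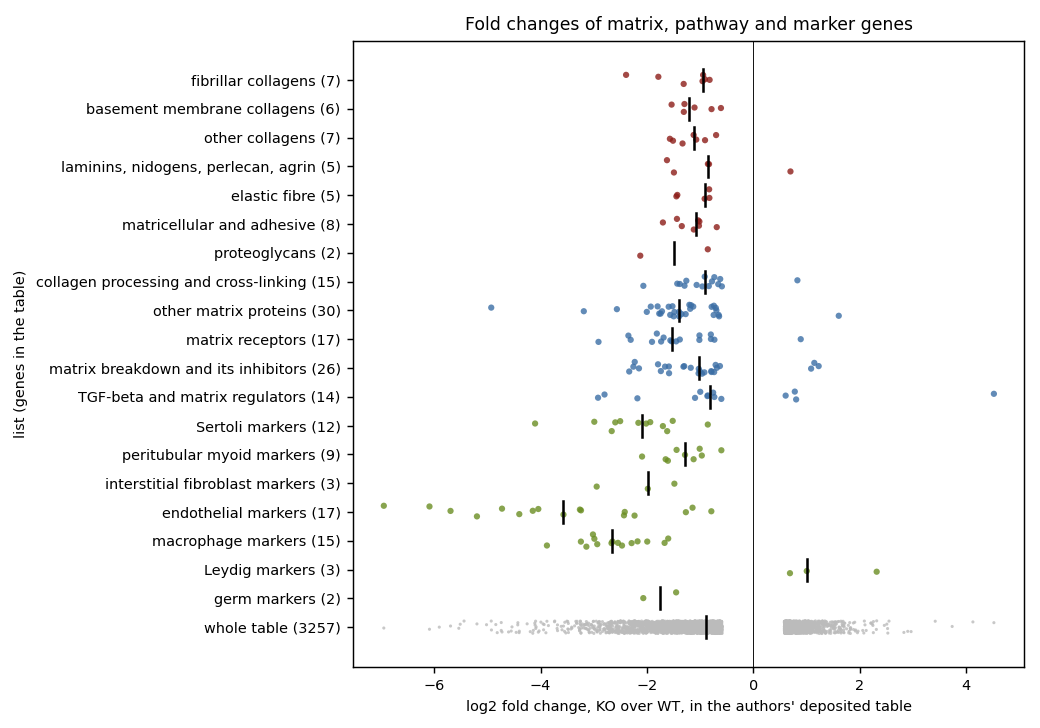
Log2 fold change of KO over WT in the authors' deposited table (horizontal axis) for each gene of the matrix role groups (red), the pathway lists (blue), the marker lists (green) and the whole table (grey), with a black bar at each median and the number of genes in brackets. The medians of the 7 matrix role groups lie between -1.49 and -0.85. The gap around 0 is the fold limit of 1.5 by which the authors selected genes.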

How the data were processed

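RNA was measured with a stranded messenger RNA kit, per the labels' protocols. Per the submitters' processing notes, the tools were FastQC, STAR and DESeq2 and the build was mm10, with no versions. The read counter, annotation and strand setting are not given in the sources used here. A single table of 3261 rows was deposited. Per the file headers, each gene had a signed fold score, a log2 fold change, a p-value and an adjusted p-value. Library columns as deposited by the authors were normalized log2 values, whose transformation is likewise not stated. All rows passed a fold of 1.5 and an adjusted p of 0.05. Efna1 and Hmga1 each appeared on 2 rows that disagreed, and these 4 rows were dropped, which left 3257 genes. No counts were used, so there are no counting intervals.

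Groups were taken from the sample titles. Limma 3.58.1 in R 4.3.3 was fitted with a mean-variance trend to the log2 values of all 3257 genes in 6 libraries, without covariates. Adjustment was by Benjamini-Hochberg over all of them. A gene was called at an adjusted p under 0.05 and an authors' fold of at least 1.5. The fit was tested on simulated data. Tables were handled in Python 3.11.15 with pandas 2.3.3. Gene IDs, coordinates (GRCm38) and promoters came from RefSeq, and all 40 genes matched. No protein sequence was used. A single matrix gene, counted among the 40, is not reported here on its own. The matrix genes and all lists were chosen with earlier results of these data known. Genes shown library by library were, in each role group, those with the largest fold and the highest mean value, and Hspg2 as the gene of the less common direction. Genes shown beyond these, among them Col1a1, Col3a1, Col11a1, the collagen V chains, Col4a3 to Col4a6, Lama3, Postn and Thbs1, were picked after their values were seen. From each pathway list the 3 largest folds in each direction were named. Alternatives were quantile normalization, median centring, no trend, a replicate block, each library left out, stricter limits, no rows in the lowest 25% by mean value, the authors' adjusted p, and, chosen after seeing the data, Loxl2 and Loxl4 as matrix genes.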

Additional observations from a re-analysis of the deposited data

How the results depend on the processing

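Scaling between libraries moved the matrix result most. Quantile normalization, which raised the median difference of the table by 0.33 on the log2 scale, left 22 matrix genes called lower and a median KO minus WT difference of -0.31, against 39 and -0.66 as reported. Median centring, a shift of 0.30, left 21 lower and a median of -0.37. Of all 3257 genes, 1143 were called lower after quantile normalization and 1024 after median centring, against 2200 as reported. Hspg2 remained called higher under both. After quantile normalization the difference changed sign in Col28a1 (0.00125), Col4a1 (0.130), Col8a2 (0.133), Fbn2 (0.0230) and Lama3 (0.137), and after median centring in Col28a1 (0.0588). The whole table held 67.8% lower among its called genes, 52.1% after quantile normalization and 47.9% after median centring. The table holds more lower than higher genes, so both scalings raise differences by construction. A fold limit of 2 left 24 lower and 0 higher, Hspg2 lying under that limit.

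Leaving out 1 library at a time gave 37 to 39 lower, 1 higher, and a median of -0.78 to -0.57. Col4a1 lost its call without KO replicate 1, Col8a2 without KO replicate 3, and both without WT replicate 2. With a replicate block 39 were lower and 1 higher, and no matrix gene lost its call. Deviations of same-numbered libraries correlated at 0.18, -0.07 and -0.00 across genes, so the numbers were not taken as pairs. Without the trend, with the authors' adjusted p, or with an adjusted p under 0.01, 39, 39 and 34 were lower and 1 was higher. Without the lowest 25% of rows by mean value, 33 matrix genes stayed in the fit, 32 lower and 1 higher.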
